A study of Mus musculus with 5 samples.

Results

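The 583 sites described here are RELA peaks of TNF-treated mouse fibroblast-like synoviocytes (FLS) that lay deep inside protein-coding genes and had no counterpart in the other peak lists of the study. A site was taken when its summit, the position of highest enrichment in a peak, had no summit of the other 3 lists within 50 bp, was more than 10 kb from the start of every protein-coding gene in the GENCODE vM21 annotation of mm10, and fell inside a protein-coding gene record. They were 28.2% of the 2070 RELA TNF peaks on chromosomes 1 to 19 and X, out of 2502 peaks in the whole list and 3798 in all 4 lists. Because the sites were chosen by measured peak calls, their number, their peak scores and their absence from the other lists are descriptions and were not tested.

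ChIP-seq was carried out on wildtype C57BL/6 FLS, the fibroblasts that line the joint, using antibodies to SOX4 or to RELA (NF-κB p65). The cells were left untreated or were given 10 ng/mL TNF for 16 h, and the DNA of 3 cultures was pooled into 1 library per condition. Each library was compared with 1 input library of untreated FLS, so the TNF-treated libraries had no input of their own. With no replicates, the 95% intervals below cover only counting error or the spread among peaks of 1 library. Neighbouring peaks of a library are not independent samples of the condition.

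RELA is the transactivating subunit of NF-κB. In resting cells it is held in the cytoplasm by IκB proteins, and TNF releases it through the IKK kinases so that it enters the nucleus and binds DNA elements that begin with a run of G and end with a run of C. NF-κB elements are found in promoters and also in enhancers within introns. Introns are in addition rich in short interspersed elements (SINEs), mobile sequences copied through RNA. The B1 SINE of rodents and the Alu SINE of primates both descend from the 7SL RNA of the signal recognition particle and share much of their sequence. Consensus Alu sequence carries TGTAATCCC and GGCTGAGGC, whereas consensus B1 carries TTTAATCCC and GGCAGAGGC at the matching places.

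The sequences of a few strong sites illustrate the SINE words. The first set is 2 intronic peaks with high fold enrichment that held TTTAATCCC, the rarer of the 2 forms at the deep sites with 40 of 583, and no peak with TGTAATCCC, found at 80, is printed. The whole peak is given from 5′ to 3′ on the strand that carries the word, as mm10 has it, and capitals mark the word.
Zfp106, chr2:120546606-120546677, plus strand: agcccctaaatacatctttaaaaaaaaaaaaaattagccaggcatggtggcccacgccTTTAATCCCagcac
Cdc42bpb, chr12:111301495-111301564, plus strand: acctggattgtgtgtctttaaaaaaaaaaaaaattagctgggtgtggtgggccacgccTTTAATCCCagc
In both peaks the capitals were followed directly by agc, which together with the last letters of the word spells GCTGGGA on the opposite strand. The fold enrichments were 31.4 in Zfp106 and 22.0 in Cdc42bpb.

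A different kind of sequence is shown by the strongest intronic site that was not soft-masked, that is, not marked as repeat or low-complexity sequence in the reference, and that held none of the 5 SINE words counted below. It lay in intron 7 of Lingo2 with a fold enrichment of 25.9, and no letters are in capitals.
Lingo2, chr4:35756220-35756286, plus strand: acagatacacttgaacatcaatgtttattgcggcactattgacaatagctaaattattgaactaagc

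The peaks of the deep sites spanned 49 to 111 bp, with 59 bp in the middle. Their median fold enrichment over the background was 10.2 (95% interval from order statistics 9.98 to 10.8), with values from 2.82 to 33.4. It was 9.98 at the 330 RELA-only sites near gene starts, 9.97 at the 733 between genes and 11.4 at the 424 RELA TNF sites shared with another list. Values above 20 were found at 50 of the 583 deep sites and at 110 of the 424 shared sites. A −log10 q of at least 10 was reached by 503 of the 583 sites, or 86.3%, beside 87.1% of all RELA TNF peaks on the same chromosomes.

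**Figure D1:**
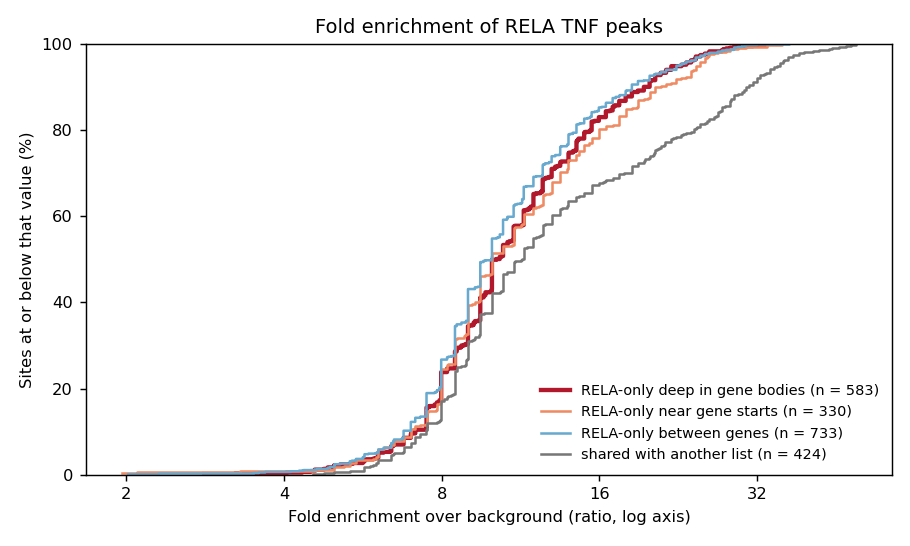
Cumulative share of RELA TNF peaks (y axis, %) at or below each fold enrichment over background (x axis, ratio on a log axis) for the deep sites, the other RELA-only sites and the sites shared with another list. The curves of the 3 RELA-only sets run close together with medians from 9.97 to 10.2, and the curve of the shared sites lies to their right above a ratio of about 12.

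Most fold enrichments fell on a common grid. At 431 of the 583 deep sites (73.9%, 70.2 to 77.3) the value was a whole multiple of 0.499 within a tolerance of 0.001, and the multiples ran from 9 to 67 with a median of 22. The corresponding shares were 77.9% near gene starts, 74.6% between genes and 70.3% at shared sites. Values on one grid can be written over a common denominator. The sites off this grid had a median of 8.64, against 10.98 on it. Values off it also recurred, among them 6.05 and 6.41, and whether they share another step was not examined.

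The 15 sites with the highest fold enrichment lay in genes of unrelated function. The highest value, 33.4, was in intron 2 of Cep57l1, a relative of the centrosome protein CEP57. Ago4, which encodes an Argonaute protein of small RNA silencing, followed with 31.9 in intron 17. The site of Zfp106, an RNA-binding zinc finger protein, had 31.4. Rora, the nuclear receptor RORα, had 30.4 in its first intron. Fnbp1, a formin-binding membrane-bending protein, had 28.9 and Pdia5, a protein disulfide isomerase of the endoplasmic reticulum, had 28.4. Stk40 had 27.9, and its summit was the single one of the 15 outside an intron. Hapln1, the link protein that holds hyaluronan and proteoglycans together in cartilage, had 27.6. Vwa3b and Ryr1, the calcium release channel of skeletal muscle, both had 27.4. The value was 25.9 in Arhgap26, a GTPase-activating protein, in Lingo2 and in Zcchc7. Atp7b, a copper transporter, and Lipc, the hepatic lipase, both had 25.4.

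Of these 15 sites, 14 were intronic and 13 were soft-masked, beside 91.9% and 78.4% of all 583 deep sites. At least 1 of the 5 SINE words was present in 8, beside 42.0% of all deep sites. None held a classical NF-κB pattern, here GGG, any 3 bases, then TTCC. That pattern was present at 0.515% of all deep sites, so its absence from 15 is uninformative. Hapln1 is the gene among them whose product is best known from joint tissue.

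Most deep sites lay in introns. The summit of 536 of the 583 (91.9%, 89.4 to 93.9) overlapped no annotated exon, and 92.6% of all deep gene-body bases are intronic by the same definition. The share of the territory lay within the interval of the sites. A first intron held 22.5% (19.1 to 26.2) of the 534 sites that fell in 1 gene and in an intron of its longest transcript, and first introns made up 21.1% of the intronic bases. When each gene was divided into 4 equal stretches from start to end, the stretches held 100, 148, 169 and 151 of 568 sites, and the first of them is shortened by the 10 kb limit. The distance from the site to the nearest gene start had a median of 39543 bp.

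The 47 sites in exons included 7 in coding exons. Of these, 3 were in Cdc27, a subunit of the anaphase-promoting complex, with fold enrichments of 10.5, 7.48 and 6.05. The others were in Hc, the complement component C5, with 10.98, in Deptor, an inhibitor of mTOR, with 9.98, in Esr1, oestrogen receptor α, with 8.48 and in Rif1, a protein of telomere and replication timing, with 4.99. Untranslated exons held 24 sites, with Stk40, Zfp655 (16.5) and Nusap1 (14.5) at the top. A further 9 lay in other exons of their gene, among them N4bp1, whose protein restrains NF-κB signalling, with 19.96, and Tnfrsf10b, the mouse TRAIL receptor, with 9.49. The remaining 7 lay in an exon of a gene other than the host.

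Repeats were more frequent under the deep summits than in the surrounding gene bodies. The base at the summit was soft-masked at 457 of 583 sites (78.4%, 74.9 to 81.5), while 28.0% of all deep gene-body bases are soft-masked. The share exceeded that of the RELA-only sites between genes by 5.81 percentage points (Newcombe 95% interval 1.11 to 10.4) and that of the shared sites by 18.01 points (12.3 to 23.7). The difference from the sites near gene starts was 1.72 points with an interval of -3.79 to 7.51, which includes 0.

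Because the word GCTGGGA was known from an earlier look at these data, its counts are descriptions. It was more frequent at the sites than around them. On either strand it was present in the 100-base window around 179 of the 583 summits (30.7%, 27.1 to 34.6). It was present in 42 of 1166 windows 2000 bp to either side (3.602%, 2.68 to 4.83) and in 3.08% of the 8378330 adjoining windows of deep gene body. The sites near gene starts had nearly the same share, 31.5%, with a difference of -0.81 points (-7.14 to 5.33). The deep sites exceeded the sites between genes by 12.0 points (7.33 to 16.7) and the shared sites by 22.4 points (17.8 to 26.9). The word also sat at the summit itself. Of its copies within 300 bp of a deep summit, 157 were less than 25 bp away, 25 were from 25 to 50 bp away, and each later step of 25 bp held from 7 to 19. It pointed along the gene in 50.3% of its 179 placements (43.0 to 57.5), beside 52.3% over all deep windows.

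**Figure D2:**
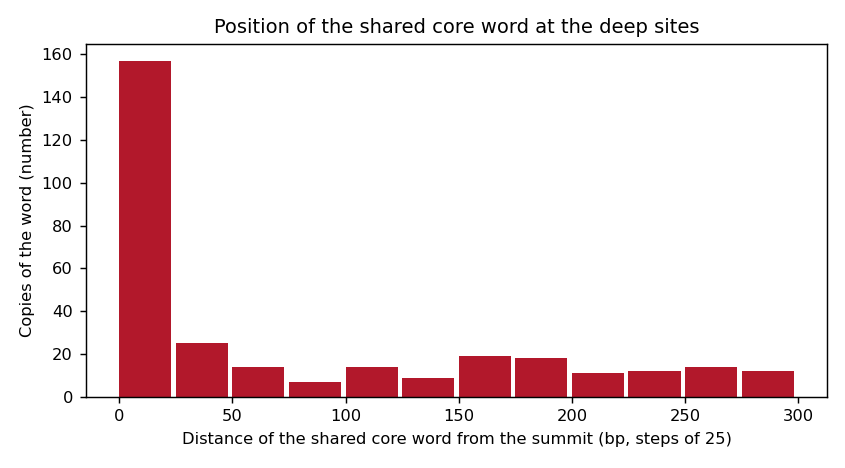
Number of copies of the shared core word (y axis) by absolute distance from the summit in steps of 25 bp (x axis), counted on both strands within 300 bp of the 583 deep summits. The first step holds 157 copies, the second 25, and none of the others exceeds 19.

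The sites and their surroundings differed in the form of the SINE words. Both pairs of words were chosen after the sequences had been looked at. TGTAATCCC was present at 80 sites (13.7%, 11.2 to 16.8) and TTTAATCCC at 40 (6.86%, 5.08 to 9.21), a ratio of 2. Over all windows of deep gene body the order was the opposite, with 12716 and 58030 windows and a ratio of 0.219. Expressed per 1000 windows of deep gene body that hold the word, there were 6.29 sites for TGTAATCCC (exact Poisson 95% interval 4.99 to 7.83) and 0.689 for TTTAATCCC (0.492 to 0.939). The mean over all windows was 0.0696. Both forms were thus above the mean, and the intervals of the 2 forms did not overlap. As the words were chosen from these same sites, neither point is a test.

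The second pair gave the same order. GGCTGAGGC was present at 68 sites (11.7%) and GGCAGAGGC at 48 (8.23%), a ratio of 1.42 beside 0.243 over all deep windows. There were 4.28 sites per 1000 windows with GGCTGAGGC (3.32 to 5.43) and 0.733 with GGCAGAGGC (0.541 to 0.972). A single site held both words of the first pair and none held both of the second. Fold enrichment did not separate the forms, with a median of 11.5 at sites with TGTAATCCC (9.48 to 12.5) and 11.5 at sites with TTTAATCCC (8.98 to 13.97). At the RELA-only sites near gene starts the first ratio was 3.06 from 55 and 18 windows, between genes it was 1.26 from 53 and 42, and at shared sites it was 3 from 12 and 4. The second ratio was 1.16 both near gene starts and between genes and 2.6 at shared sites, from 13 and 5 windows. The leaning of the ratios was thus not particular to the deep sites. Whether reads of human or other primate DNA that aligned to mm10 contributed to these sites was not tested, since reads were not used here and no genome other than mm10 was searched. The sites are therefore peaks on mm10 whose origin from mouse chromatin was not checked.

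**Figure D3:**
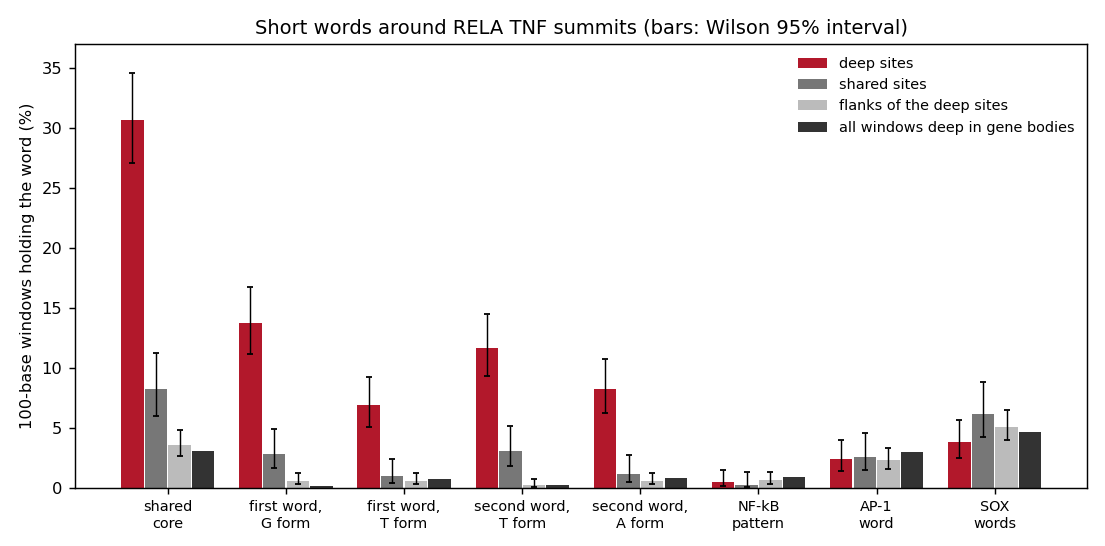
Share of 100-base windows (y axis, %) that hold each word on either strand, for the deep sites, the shared sites, the flanks of the deep sites and all adjoining windows deep in gene bodies, with Wilson 95% intervals on the first 3. In the labels the first word is TGTAATCCC (G form) or TTTAATCCC (T form) and the second is GGCTGAGGC (T form) or GGCAGAGGC (A form). The deep sites stand at 30.7% for the shared core and 13.7% for the G form. Their NF-κB, AP-1 and SOX patterns stand at 0.515%, 2.401% and 3.77%, and all windows deep in gene bodies at 0.890%, 2.95% and 4.66%.

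Similarity among the sites went beyond these words. When windows were joined by any identical run of 16 bases on either strand, 402 of 583 (69.0%, 65.1 to 72.6) fell into a single family. The flanking windows joined in the same way gave a largest family of 29 of 583 to the left (4.97%) and 25 to the right (4.29%). The next families of the deep sites held 8 and 5 windows, and 132 windows joined no other. The largest family contained 174 of the 179 windows with GCTGGGA and every window with TGTAATCCC or TTTAATCCC. Its median fold enrichment was 10.9 (9.98 to 11.5), and that of the other sites was 9.48 (9.21 to 9.98). As fold enrichment comes from the peak calls that chose the sites, this difference is a description. At least 1 of the 5 words was present at 245 sites (42.0%), so the remaining 338 were not reached by these words.

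Exact copies of the bases at the summit were also counted. The central 24 bases occurred more than once on chromosomes 1 to 19 and X at 213 sites (36.5%, 32.7 to 40.5), with up to 4285 copies. The central 50 bases, the length of a read, did so at 3 sites (0.515%), with at most 2 copies. Copies that differ by a few bases were not counted. Whether reads could be placed on a single copy was therefore not tested.

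Words of NF-κB, AP-1, SOX and AP-2 showed no excess over the surroundings, and a wider NF-κB pattern given below was less frequent than there. The NF-κB pattern was present in 3 of the 583 windows (0.515%, 0.175 to 1.50), in 8 of the 1166 flanking windows (0.686%) and in 0.890% of all deep windows. The 3 windows belonged to Sp100, a nuclear body protein, with a fold enrichment of 11.5, to Sv2b, a synaptic vesicle protein, with 10.98, and to Ube3a, a ubiquitin ligase, with 9.48. A wider pattern chosen after seeing the data, which is GG, A or G, any 3 bases, C or T at the next 2 places and CC, was present in 15 windows (2.57%, 1.57 to 4.201), beside 4.37% of the flanks and 4.50% of all deep windows. The AP-1 word TGANTCA was present in 14 windows (2.401%, 1.44 to 3.99) and in 2.95% of all deep windows. The SOX words AACAAAG or AACAATG were in 22 (3.77%, 2.51 to 5.65) and in 4.66%. The AP-2 word GCCNNNGGC was in 6 (1.03%, 0.473 to 2.23) and in 1.45%. For the NF-κB pattern the differences from the other RELA TNF sites all had intervals that include 0, among them 0.279 points (-0.861 to 1.28) from the shared sites. In the paper, a de novo motif search found AP-2 and NF-κB motifs enriched in RELA-only peaks. Those peaks were set against the SOX4 list alone and were not limited to gene bodies. The counts here are thus of another set and another measure. A match to such letters does not show binding, and their lack in these windows says nothing about RELA elsewhere.

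The words were also counted by strength of the site. Among the 146 strongest of 4 groups ordered by fold enrichment, with values from 14.2 to 33.4, GCTGGGA was present in 55 windows (37.7%, 30.2 to 45.8). Among the 145 weakest, with values up to 8.48, it was present in 36 (24.8%, 18.5 to 32.4). Soft-masked summits made up 85.6% and 70.3% of the same groups. None of the 146 strongest windows held the NF-κB pattern, which allows a share of up to 2.56% by the Wilson interval. The intervals of GCTGGGA overlap between the groups, and fold enrichment comes from the peak calls that chose the sites, so this order is a description.

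The sites were spread over many genes. They lay in 561 protein-coding genes, or 4.28% of the 13094 that have any base more than 10 kb from a gene start, and 527 of these held a single site. Long genes held sites more often. The deep gene body had a median length of 97.04 kb in genes with a site and 22.975 kb in the others, and the share of genes with a site rose from 0.229% to 15.5% over 10 groups of genes ordered from short to long. Per megabase the order was different. The group of the longest genes had 0.492 sites per Mb (exact Poisson 95% interval 0.431 to 0.560), whereas the other 9 groups had from 0.825 to 1.52. The value of 1.52 came from 3 sites in the group of the shortest genes (0.313 to 4.44), and the next group held 7 sites (0.439 to 2.25). Both of these intervals include 0.492. Over the whole deep territory of 838 Mb the density was 0.696 per Mb (0.640 to 0.755), between 0.916 (0.820 to 1.02) within 10 kb of gene starts and 0.538 (0.5002 to 0.579) between genes.

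**Figure D4:**
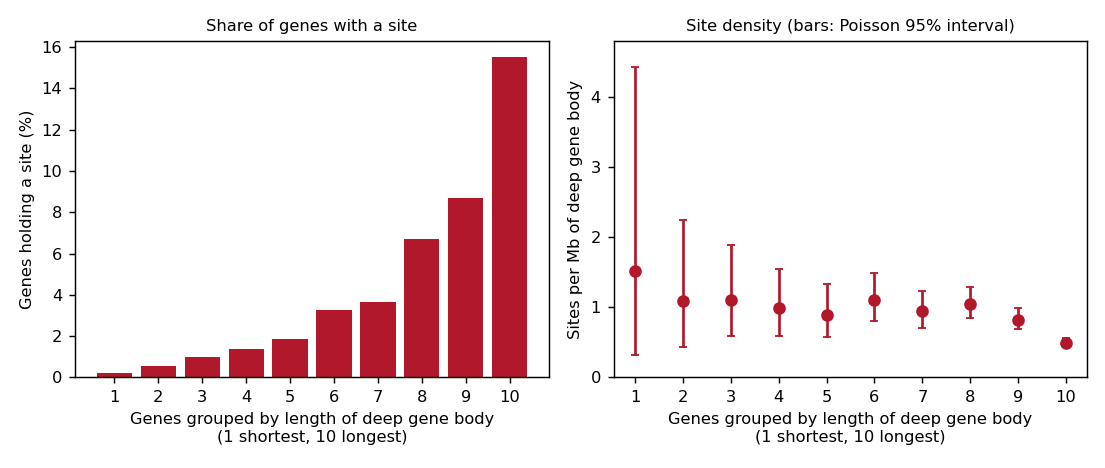
Left, share of genes holding a deep site (y axis, %) in each of 10 groups of the 13094 genes ordered by length of deep gene body (x axis). Right, sites per Mb of deep gene body in the same groups, with exact Poisson 95% intervals. The share rises to 15.5% in the group of the longest genes, where the density of 0.492 per Mb is below that of the other groups.

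Genes with several sites were few. Gm20388, a predicted gene record that spans many other genes and has 3298 kb of deep gene body, held 5 sites with fold enrichments from 7.12 to 23.9. Cdc27 held the 3 exonic sites given above within 37.9 kb. Another 32 genes held 2. Among them, Rora had 30.4 and 11.4, and Ncoa1, a coactivator of nuclear receptors, had 24.9 and 8.19. Tiam1, an activator of Rac, had 22.0 and 11.5, and Hc, with its intronic and its coding site, had 15.97 and 10.98. The receptor phosphatase gene Ptprd had 15.0 and 7.98, and Fam126a, which encodes hyccin, had 18.5 and 17.96. Others were Arhgap15, Armc9, Cacna1d, Cdc42se2, Cmss1, Cntnap3, Cntnap5a, Ctnna3, Dlgap2, Dnah8, Filip1l, Fstl5, Hdac8, Il1rapl1, Kif13a, Mindy2, Mtus2, Pak3, Ppp4r1, Pstpip2, Rbfox2, Scaper, Sntg1, Ttc28 and Ubtd2. Filip1l lies within Cmss1, and their 2 sites are the same. In all, 568 of the 583 sites lay in a single protein-coding gene record.

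No deep site lay in the 29 NF-κB pathway genes with deep gene body, in the 40 genes of extracellular matrix and proteases or in the 16 FLS marker genes. Their deep bodies are small, so for the pathway genes 0 sites in 0.763 Mb allows a density of up to 4.84 per Mb, and for the matrix genes 0 in 3.36 Mb allows up to 1.10, both above the 0.700 of all protein-coding genes counted gene by gene. Of 17 cytokine, chemokine and adhesion genes, 1 held a site. It was Il1rap, the shared accessory protein of the IL-1 receptor family, with a fold enrichment of 10.5 in intron 2.

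Signalling genes held a few sites each, to be read against the 4.28% of all genes with deep gene body that held one. Among 23 genes of MAP kinase and AP-1 signalling, 3 held a site (13.04%). They were Map3k5, or ASK1, a stress kinase, with 17.0, Map3k4 with 9.97, and Mapk8, which encodes the kinase JNK1, with 9.69. The list had 1.76 sites per Mb (0.363 to 5.14). Of 43 genes of TGF-β, BMP and Wnt signalling, 3 held a site, namely Wnt5b (13.97), the repressor Tcf7l1 (10.98) and the receptor Fzd3 (9.48). Of 44 chromatin coregulators, 3 did, namely Ncoa1, Hdac9, a class II histone deacetylase (9.98), and Chd7, a chromatin remodeller (7.48). Of 46 genes of the actin cytoskeleton and focal adhesion, 6 did. These were Arhgap26 (25.9), the exchange factor Arhgef3 (11.5), the Rac activator Dock1 (9.98), the GTPase-activating protein Dlc1 (7.54), non-muscle myosin Myh10 (6.77) and integrin Itga4 (4.85). Densities of these lists lay from 0.669 to 1.76 per Mb, and every interval included the value over all genes.

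The very long neuronal adhesion genes had the highest share of genes with a site among the 9 lists and a density under that of all genes. A site was present in 16 of 40 (40.0%), with 2 each in Cntnap5a, Il1rapl1, Ctnna3 and Ptprd and 1 in each of the others, among them Cntn6, Robo1, Nlgn1, Grm7, Ntm, Cdh13, Sgcz, Lingo2, Magi2, Nrxn3 and Lsamp. Their 48.8 Mb of deep gene body gave 0.410 sites per Mb (0.250 to 0.633), an interval that lies below the 0.700 of all genes and includes the 0.492 of the longest genes. Of the 638 genes whose TNF response depended on SoxC in the study's RNA-seq, 481 matched a protein-coding gene by name. Of these, 328 had deep gene body and 24 held a site (7.32%), with 0.768 sites per Mb (0.522 to 1.09). Gm20388, the record that spans many other genes, gave 5 of the 31 sites in this list. Every list was put together with earlier results of these data known, and none was tested.

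**Figure D5:**
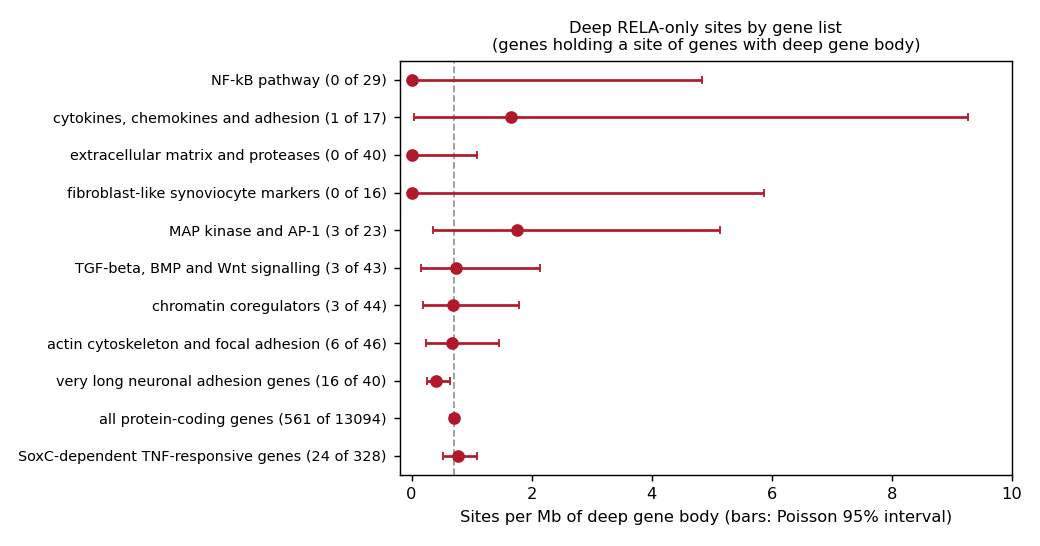
Deep sites per Mb of deep gene body (x axis) for each gene list, with exact Poisson 95% intervals. The labels give how many genes held a site out of those with deep gene body, and the dashed line marks the 0.700 of all protein-coding genes. The interval of the very long neuronal adhesion genes ends at 0.633, to the left of the line.

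The sites nearest to the limits of the rule had fold enrichments from 6.99 to 13.9. The limit of 50 bp fell in a gap between 18 and 153 bp. At the limit of 10 kb the values just outside were higher than those just inside. Summits with no other list within 50 bp make up 79.5% of the 2070 RELA TNF peaks. The nearest retained sites were those of Ncoa1 at 153 bp from another summit (fold enrichment 8.19), Fut8 at 442 bp (9.98) and Ube3a at 941 bp (9.48). Just outside were Cacna2d3 at 18 bp (8.48), Agbl4 at 17 bp (7.48) and Col4a6 at 16 bp (8.98). Around the limit of 10 kb, Capn1 at 10105 bp (6.99), Thegl at 10158 bp (8.20) and Fuca1 at 10196 bp (7.83) were inside, and Jakmip3 at 9934 bp (8.48), Ppm1d at 9914 bp (12.97) and Wrb at 9860 bp (13.9) were outside. The sites farthest from a gene start were in Ptprd at 1134496 bp, Lrrc4c at 965106 bp and Il1rapl1 at 877260 bp. Neighbouring deep sites were rarely close, and 10 of 563 gaps between them were at most 10 kb.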

How the data were processed

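FLS chromatin was immunoprecipitated for SOX4 or RELA with or without TNF, and 4 peak lists were used. The authors aligned single-end 50-base reads to mm10 and used the MACS step of Strand NGS 4.0 to call peaks over the input, at a p-value cutoff of 1e-05 and a fragment length of 300. The mapper and the handling of duplicate and multi-mapped reads are not given in the sources used here, and read depth per library cannot be read from peak lists. The deposited P and Q scores are the −log10 of the p-value and q-value, and the deposited fold change is a fold enrichment ratio. The input's own values were not analysed here, and some genes and sequences are not reported here.

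Summits were placed on GRCm38 (mm10) with GENCODE vM21. Members, words and gene lists were chosen with earlier results of these data known. Words were counted on both strands in windows of 100 bases, and the adjoining background windows miss words that cross an edge. Bases counted as repeats were those soft-masked in the reference. Shares have Wilson intervals, their differences Newcombe intervals and densities exact Poisson intervals, all at 95%. Genes were named as the 15 highest fold enrichments, genes with 2 or more sites, listed genes with a site, sites in exons (examples), and sites at the limits of the rule. No p-value was computed from peaks. Alternatives covered the score threshold, the distances of the rule, merging, midpoints, masking, window width and run length. Simulated data with planted answers were used to test the functions. Scripts ran in Python 3.11.15 (scipy 1.17.1, numpy 2.4.6, numba 0.67.0, pandas 2.3.3, matplotlib 3.10.9).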

Additional observations from a re-analysis of the deposited data

How the results depend on the processing

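Of 42 recomputed values for 10 results, 31 stayed within 1.5 times the count or within the 95% interval, and 11 moved. The results are counts, medians, shares and a density without a direction, so none could reverse. When peaks needed a −log10 q of 10 or more, the median fold enrichment was 10.98 and the density 0.600 per Mb, both following from fewer, stronger peaks. Beyond 20 kb from gene starts the density was 0.636 per Mb. Among the summits that were not soft-masked the median fold enrichment was 9.48, GCTGGGA was in 6.35% of windows and the NF-κB pattern in 1.59%. When these windows alone were joined, the largest family held 5.56% of them. This setting leaves out the masked repeats by construction. The 5.56% is not the share that belonged to the family of 402 windows described above, which held 30 windows with an unmasked summit. In windows of 200 bp the NF-κB pattern was in 1.89% and the AP-1 word in 6.17%, as wider windows hold more words. The wider NF-κB pattern, chosen after seeing the data, gave 2.57%. With runs of 20 bases the largest family held 55.9% of windows. The number of sites ranged from 448 beyond 20 kb to 683 beyond 5 kb. No paired analysis was possible because there is a single library for every condition, and no library could be left out. The peak lists hold no read counts, so sites missing from another list may have been below its threshold.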

Other observations

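The SINE words were rarer in the other 3 peak lists. GCTGGGA was present in 16 of 192 SOX4 untreated windows (8.33%, Wilson 95% interval 5.19 to 13.1), in 36 of 543 SOX4 TNF windows (6.63%, 4.83 to 9.04) and in 29 of 402 RELA untreated windows on chromosomes 1 to 19 and X (7.21%, 5.07 to 10.2). TGTAATCCC was in 7 SOX4 untreated, 10 SOX4 TNF and 10 RELA untreated windows, and TTTAATCCC in 1, 2 and 3. TGTAATCCC was thus the more frequent form in these lists too. Most windows of these lists were close to a RELA TNF summit. Where no RELA TNF summit lay within 50 bp, GCTGGGA was in 1 of 33 SOX4 untreated, 3 of 162 SOX4 TNF and 1 of 60 RELA untreated windows. TGTAATCCC and TTTAATCCC were in none of these windows, and by the Wilson interval the 162 SOX4 TNF windows allow a share of up to 2.32% for each.

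The 10-base words most frequent at the deep sites included stretches of the SINE words. Whether they all come from 1 element was not tested. GCTGGGATTA led with 115 of 583 windows (19.7%) and 5 of 1166 flanking windows (0.429%). CTCAGCCTCC was in 82 windows (14.1%) and 1 flanking window, and CTTGGGAGGC in 60 windows (10.3%) and no flanking window.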
